A study of Mus musculus with 4 samples.

Results

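Skeletal muscle genes were followed in the back skin of mice aged 10 days whose keratinocytes lacked the membrane protease ADAM17. The set held 37 genes of the contractile apparatus and energy supply of striated muscle, chosen by name as known muscle genes, and each was read by its brightest probe. All 37 had a probe on the array, 36 passed the filter on dim probes, and 15552 genes were tested in all. Mouse back skin carries a thin sheet of striated muscle, the panniculus carnosus, below its fat layer, so a biopsy of whole skin includes muscle fibres.

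The series compared 2 conditional knockout animals (cKO) with 2 control littermates, 1 of each from each of 2 litters, on a mixed 129Sv and C57BL/6 background. The cKO mice were Adam17flox/flox and Krt14-Cre positive. The controls were Krt14-Cre negative pups of the same matings (Adam17flox/+Krt14-Cre with Adam17flox/flox), and the labels do not say whether they carried 1 or 2 floxed alleles. The keratin 14 promoter drives Cre in basal keratinocytes and not in muscle fibres, and the controls lacked Cre, so Cre and the loss of ADAM17 cannot be told apart. Each biopsy was hybridised to 1 Agilent whole mouse genome array, all 4 on 1 slide. Levels are log2 values of the processed signal relative to the 75th percentile of the same array, and every difference is cKO minus control. The share of gene spots well above background ran from 53.7% to 56.6%, and 0 spots were saturated. The targeted gene Adam17 measured -0.54 ± 0.09 (SE), 69.0% of the control signal, and missed the threshold (limma adjusted p = 0.114). Precision is limited by having 2 arrays in each group.

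Striated muscle contracts when thick filaments of myosin pull on thin filaments of actin, and calcium bound by troponin on the thin filament starts the pull. Fibres are typed by their myosin heavy chain: Myh7 marks slow fibres, Myh2, Myh1 and Myh4 mark the fast types IIa, IIx and IIb, and Myh3 and Myh8 are the embryonic and perinatal forms that muscle replaces after birth. Fast and slow fibres also use different troponins and myosin light chains. On chromosome 11 the genes Myh3, Myh2, Myh1, Myh4 and Myh8 lie next to each other as protein-coding neighbours, in that order, and Myh13 follows, while Myh7 lies on chromosome 14.

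The promoters of the 6 myosin heavy chain genes are shown because these genes define the fibre types and their differences between genotypes ran from -1.54 to 0.75. Each run covers the 250 bases before the annotated start, 5′ to 3′, from RefSeq, build GRCm38.p6, and for Myh7, which had 2 annotated starts, the more upstream one. Capitals mark E-boxes (CANNTG, the motif bound by myogenic factors such as MyoD) and matches to the MEF2 motif, which muscle activators of the MEF2 family bind.

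Myh3 promoter, chr11:67078050-67078299, + strand: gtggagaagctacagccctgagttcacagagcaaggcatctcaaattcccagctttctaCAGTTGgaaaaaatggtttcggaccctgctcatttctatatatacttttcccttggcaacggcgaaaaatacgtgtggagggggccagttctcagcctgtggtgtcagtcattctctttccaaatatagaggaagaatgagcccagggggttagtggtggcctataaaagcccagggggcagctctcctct
Myh2 promoter, chr11:67170777-67171026, + strand: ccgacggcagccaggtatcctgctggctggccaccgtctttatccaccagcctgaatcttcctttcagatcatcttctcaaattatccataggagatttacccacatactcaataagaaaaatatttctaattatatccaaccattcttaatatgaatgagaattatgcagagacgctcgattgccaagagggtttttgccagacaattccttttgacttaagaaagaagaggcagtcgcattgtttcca
Myh1 promoter, chr11:67199852-67200101, + strand: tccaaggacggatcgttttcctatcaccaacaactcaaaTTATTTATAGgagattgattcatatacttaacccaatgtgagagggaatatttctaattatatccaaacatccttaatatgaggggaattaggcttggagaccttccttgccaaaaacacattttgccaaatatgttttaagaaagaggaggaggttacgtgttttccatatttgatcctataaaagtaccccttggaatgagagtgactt
Myh4 promoter, chr11:67237562-67237811, + strand: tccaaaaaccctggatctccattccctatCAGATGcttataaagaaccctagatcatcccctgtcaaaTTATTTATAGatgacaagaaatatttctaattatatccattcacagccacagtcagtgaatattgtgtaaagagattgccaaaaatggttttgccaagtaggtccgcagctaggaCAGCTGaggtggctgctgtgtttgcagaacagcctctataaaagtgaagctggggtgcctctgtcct
Myh8 promoter, chr11:67276874-67277123, + strand: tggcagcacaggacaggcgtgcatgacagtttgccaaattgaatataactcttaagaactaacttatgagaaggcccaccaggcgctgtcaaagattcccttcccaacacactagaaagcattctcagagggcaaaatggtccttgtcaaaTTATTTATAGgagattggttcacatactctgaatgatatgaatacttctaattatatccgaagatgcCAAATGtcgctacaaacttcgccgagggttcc
Myh7 promoter, chr14:54994627-54994876, - strand: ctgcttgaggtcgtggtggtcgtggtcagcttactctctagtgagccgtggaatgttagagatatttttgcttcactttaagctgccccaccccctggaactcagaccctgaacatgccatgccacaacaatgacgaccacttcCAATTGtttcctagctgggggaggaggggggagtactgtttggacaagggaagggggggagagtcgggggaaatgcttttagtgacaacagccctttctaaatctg

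The MEF2 match was the same 10 letters, TTATTTATAG, in 3 of these promoters, starting 211 bases before the start of Myh1, 182 before that of Myh4 and 99 before that of Myh8. No MEF2 match and no E-box stood in the window of Myh2. Of the 37 members, 30 had a window in the table, some with more than 1 annotated start, which gave 37 windows. The E-box CAGCTG, a subset of CANNTG, was found in 18 of the 37 windows (48.6%), against 13.0% of 32817 windows of all genes. The MEF2 motif was found in 6 windows (16.2%) against 2.92% of all, the CArG box, which serum response factor binds, in 4 (10.8%) against 1.47%, and the general CANNTG in 31 (83.8%) against 66.2%. All were searched on both strands. Windows of the same gene could overlap, so a site could count in more than 1 window. Of the 30 members with a window, 16 had CAGCTG, 6 the MEF2 motif, 3 the CArG box and 26 CANNTG. These are matches of letters in a short window, with no test, and they say nothing about binding here.

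Most muscle genes had higher levels in cKO skin, and by more in litter 2 than in litter 1. Of the 36 tested, 27 were higher in cKO in both litters, 4 were lower in both and 5 were mixed, while 40.4% of all genes tested were higher in both litters and 32.1% lower in both. The median difference was 0.39, against 0.03 over all genes tested. In litter 1 the median was 0.18 and in litter 2 it was 0.62, against 0.03 and 0.02 over all genes. Both cKO arrays lay above both controls for 25 of the 36 (28% of all genes tested) and below both for 3 (21.4%). No single member passed an adjusted p of 0.05 in limma (0 of 36, lowest adjusted p = 0.0749), where 0.341% of all genes did (53 of 15552; 0.0707% passed as higher). With litter as a replicate block 0 of 15552 passed. At an unadjusted p under 0.05, limma gave 16 members higher and 1 lower, against 8.04% and 8.11% of all genes. Tnnc1, which passed the filter only through the cKO arrays, was among the 16. It was also among the 27 higher in both litters, the 25 without overlap and the 20 over 1.5-fold in litter 2. With only probes well above background on all 4 arrays, 15 of 35 members were higher at this p. There, 16.2% of all genes passed it in either direction. With normexp, a model-based correction of the local background of the mean signal with an offset of 50 added, the 16 became 0. Under normexp 2.72% of all genes had an unadjusted p under 0.05 in either direction, against 16.2% in the main fit (limma). More than 1.5-fold higher in cKO were 4 members in litter 1 (3.16% of all genes) and 20 in litter 2 (3.88%). In bulk tissue, a different number of muscle fibres and a different amount of RNA per fibre cannot be told apart.

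**Figure D1:**
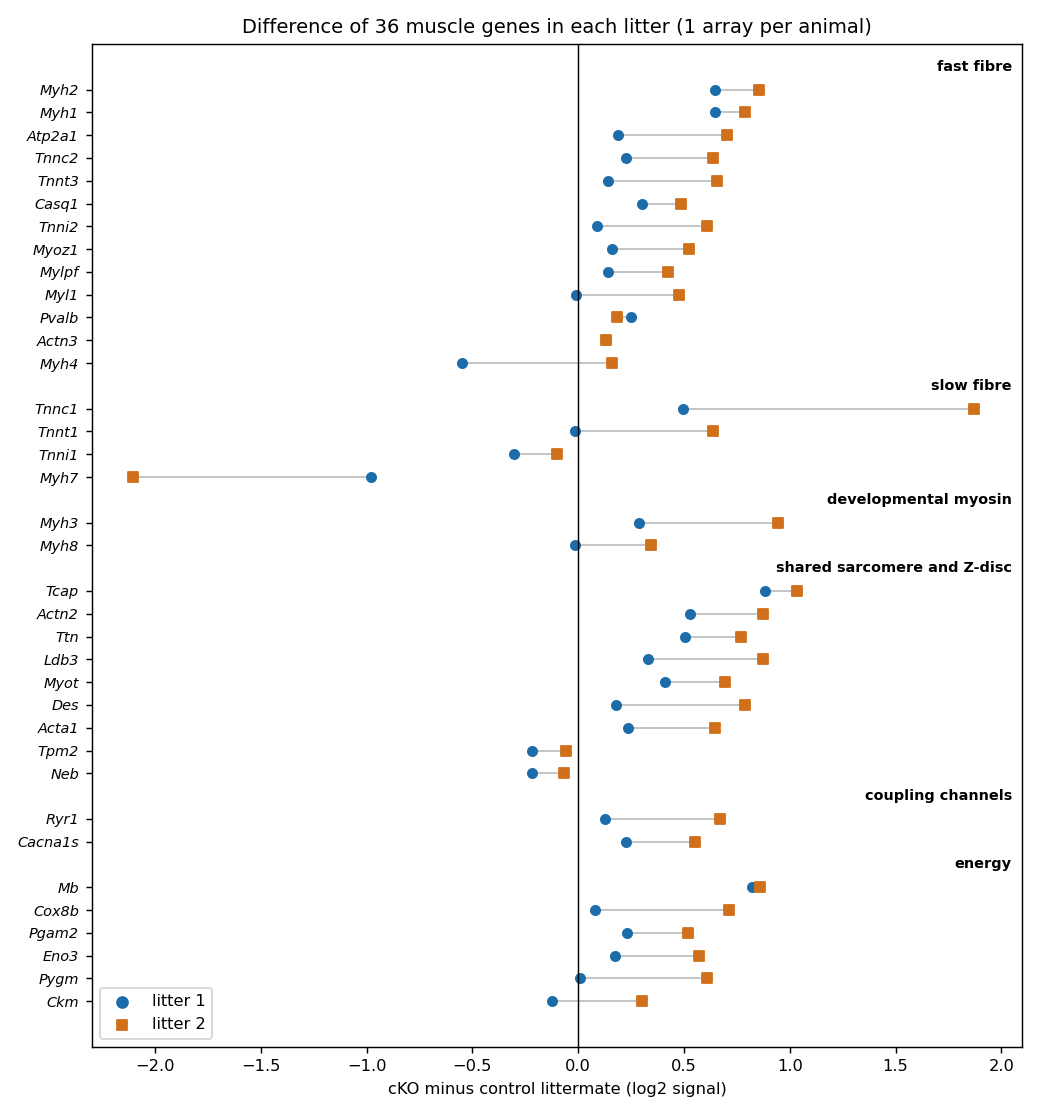
Difference between cKO and control littermate (x axis, log2 signal) for 36 muscle genes grouped by role, with circles for litter 1 and squares for litter 2, 1 array per animal. Most points lie to the right of 0 and most squares lie to the right of their circles, while Myh7 lies far to the left in both litters.

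The control animals themselves differed in these genes. In control replicate 2, 34 of the 36 members were lower than in control replicate 1, with a median of -0.32, whereas 45% of all genes tested were lower there and their median was 0.02. Between the cKO animals 12 of the 36 were lower in replicate 2 (48.3% of all genes), and the median was 0.10. The difference was larger in litter 2 than in litter 1 for 34 of the 36 (47% of all genes). Without control replicate 1 the members' median became 0.56, and without control replicate 2 it became 0.20. With normexp background correction it was 0.14.

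Among the fast-fibre genes, 11 of 13 were higher in both litters, none was lower in both, and the median was 0.35 (0.16 in litter 1 and 0.52 in litter 2). This median was 0.54 without control replicate 1, 0.16 without control replicate 2 and 0.13 with normexp. By their brightest probes, the 3 fast myosin heavy chains did not share 1 direction. Myh2, the type IIa myosin, stood at 5.47 and 5.17 in control replicates 1 and 2 and at 6.11 and 6.02 in cKO replicates 1 and 2. Both cKO animals thus lay above both controls, and the difference was 0.75 ± 0.13 (SE), a 1.68-fold higher signal (limma adjusted p = 0.129). Its other probes that passed gave differences between 0.63 and 0.87.

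Myh1, the type IIx myosin, stood at 6.07 and 5.50 in the controls and at 6.71 and 6.29 in the cKO animals, again without overlap. The difference was 0.72 ± 0.25 (SE; limma adjusted p = 0.294), and 0.65 and 0.79 in litters 1 and 2. Another Myh1 probe gave 0.47, and one annotated on the opposite strand just beyond the gene's main probe gave 0.08. Myh4, the type IIb myosin, was the fast myosin without this pattern: 7.33 and 6.68 in the controls, 6.78 and 6.84 in the cKO animals. Its groups overlapped, with -0.55 in litter 1 and 0.16 in litter 2, and the fitted difference was -0.19 ± 0.23 (SE; limma adjusted p = 0.734). Its other probe, nearly as bright, gave 0.12 and read 6.60 and 6.49 in the controls and 6.67 and 6.65 in the cKO animals. By that probe both cKO animals lay above both controls, so the probes did not agree in sign. Set against the members' median of each litter, Myh4 lay 0.72 and 0.46 log2 units below it, and Myh1 0.47 and 0.17 above it. Myh1 and Myh4 were added after their values were seen, and whether a probe binds more than 1 of these related transcripts was not tested.

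**Figure D2:**
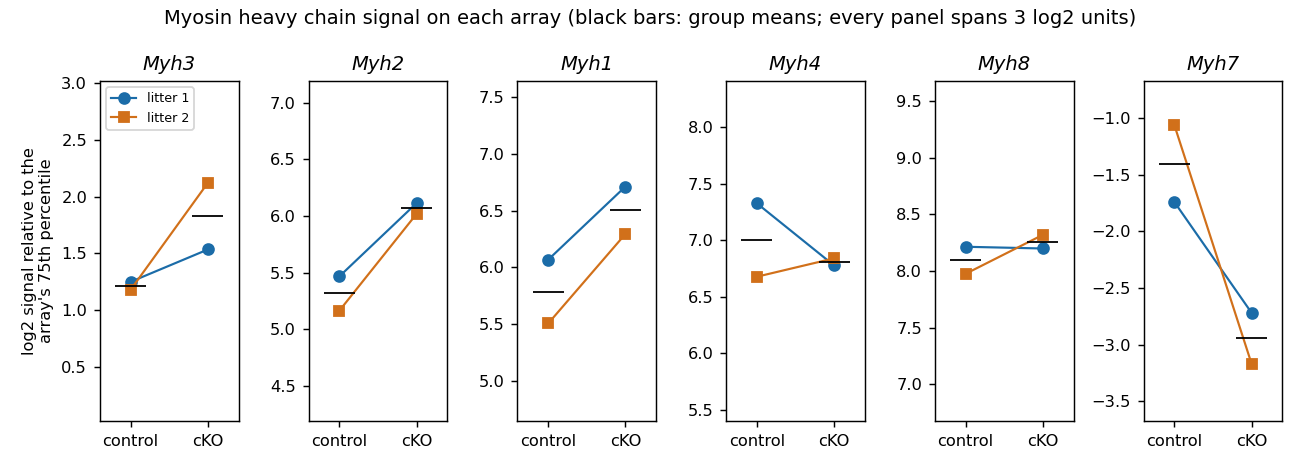
Log2 level of 6 myosin heavy chain genes (y axis, relative to the array's 75th percentile) in control and cKO skin, with a line joining littermates and black bars at the group means. Myh2 and Myh1 were higher in cKO in both litters, the brightest Myh4 probe went opposite ways, and Myh7 was lower in both.

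Of the other fast-fibre genes, Tnnc2, the calcium-binding troponin of fast fibres, had levels of 7.80 and 7.57 in the controls and 8.03 and 8.20 in the cKO animals. The groups did not overlap, and the difference was 0.43 ± 0.13 (SE; limma adjusted p = 0.242). Casq1, which stores calcium in the sarcoplasmic reticulum, had nearly equal controls (0.96 and 0.95) and higher cKO levels (1.26 and 1.43), a difference of 0.39 ± 0.10 (SE; limma adjusted p = 0.202). Pvalb, the calcium buffer parvalbumin, differed more between litters than between genotypes: 0.85 and 0.05 in the controls, 1.10 and 0.24 in the cKO animals. Its litter differences were 0.25 and 0.18, with a fitted SE of 0.41. The remaining 7 fast genes (Mylpf, Myl1, Tnnt3, Tnni2, Actn3, Myoz1 and the calcium pump Atp2a1) had differences from 0.13 to 0.45, and for 5 of them both cKO animals lay above both controls.

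The slow-fibre genes tested had lower control means (-5.43 to -0.42) than every other member tested, and they went different ways. Myh7, Tnnt1 and Tnni1 were still well above background on every array, and Tnnc1 was not. Myh7, the slow myosin, was the only member at an unadjusted p under 0.05 with a lower level: -1.74 and -1.06 in the controls against -2.72 and -3.17 in the cKO animals. Both cKO animals lay below both controls, at 34.4% of the control signal, a difference of -1.54 ± 0.29 (SE; limma adjusted p = 0.137). The litters gave -0.98 and -2.11, and a second Myh7 probe, shifted by 5 bases and so not independent, gave -1.64. With normexp background correction, which adds an offset of 50 to every spot, the difference was -0.22.

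Tnni1, the inhibitory troponin of slow fibres, stood at -0.73 and -0.67 in the controls and -1.03 and -0.77 in the cKO animals, a difference of -0.20 ± 0.12 (SE; limma adjusted p = 0.489). Tnnt1, the slow tropomyosin-binding troponin, had overlapping groups: -0.23 and -0.60 in the controls, -0.25 and 0.04 in the cKO animals. Its litters gave -0.017 and 0.64. Tnnc1, the troponin C shared by slow and heart muscle, was not well above background on either control array and was above it on both cKO arrays. Against the lowest signal measurable there its level was at least 1.41-fold higher in cKO skin (limma adjusted p = 0.256), while its measured means were -5.43 and -4.25. Myl2, the slow regulatory light chain, was not well above background on any array and was not tested. The 4 slow genes tested, Tnnc1 among them, had a median of 0.05. This median ranged from -0.20 to 0.31 over the alternatives, so it had no settled sign. It was -0.20 with only probes well above background on all 4 arrays, which leaves out Tnnc1. It was 0.31 without the filter on dim probes, which adds Myl2.

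The developmental myosins were both well measured at this age. Myh8, the perinatal myosin, stood at 8.21 and 7.98 in the controls and at 8.20 and 8.32 in the cKO animals. The groups overlapped, and the difference was 0.16 ± 0.12 (SE; limma adjusted p = 0.567). A second Myh8 probe, far dimmer, gave 0.41. It read -3.45 and -3.82 in the controls and -3.37 and -3.07 in the cKO animals, without overlap. Myh3, the embryonic myosin, had controls at 1.25 and 1.18 and cKO animals at 1.53 and 2.12, so the groups lay apart, mainly through cKO replicate 2. The difference was 0.61 ± 0.22 (SE; limma adjusted p = 0.296), and its second probe, which overlaps the first in part, gave 0.58. Relative to the members' median of each litter, Myh3 lay 0.11 and 0.32 above it and Myh8 0.19 and 0.28 below it. The main probes of Myh3, Myh2, Myh1, Myh4 and Myh8 lay on chromosome 11 (mm9) at 66914857 to 66914916, 67010952 to 67011011, 67037938 to 67037997, 67073834 to 67073893 and 67121925 to 67121984, and that of Myh7 on chromosome 14 at 55589531 to 55589590. Exon and UTR annotation in mm9 was not used here.

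Of the 9 genes that all striated fibres share in the sarcomere and its Z-disc, where thin filaments are anchored, 7 were higher in both litters and 2 lower in both, and the median was 0.55 (0.32 with normexp). Tcap, which caps titin at the Z-disc, had the lowest p of all members: 3.42 and 3.20 in the controls, 4.30 and 4.23 in the cKO animals. The groups lay well apart, and the difference was 0.96 ± 0.11 (SE), a 1.94-fold higher signal (limma adjusted p = 0.0749; between 0.052 and 0.729 over the alternatives). Actn2, the Z-disc actin crosslinker, stood at 2.27 and 2.04 in the controls and 2.80 and 2.91 in the cKO animals, a difference of 0.70 ± 0.12 (SE; limma adjusted p = 0.125).

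Ttn encodes titin, the spring that spans from Z-disc to the middle of the sarcomere, and its main probe read 1.48 and 1.37 in the controls and 1.99 and 2.14 in the cKO animals. That difference of 0.64 ± 0.10 (SE; limma adjusted p = 0.115) came from the probe nearest the 3′ end among those that passed. With the mean of all 7 Ttn probes that passed, the difference was 0.21 (limma adjusted p = 0.703). The probe 261 kb upstream of the 3′-most probe gave -0.40 in litter 1 and 0.16 in litter 2. The probe at 241 kb gave 0.08 and 0.07, while between the controls it differed by -0.81 and between the cKO animals also by -0.81. At that probe the animals of litter 2 were lower than those of litter 1 in both genotypes.

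Neb, which encodes nebulin, the ruler protein of the thin filament, was also read far from the 3′ end. Its main probe, 139 kb from the 3′-most one, read 0.91 and 0.04 in the controls and 0.69 and -0.02 in the cKO animals, lower in replicate 2 of both groups. The genotype difference was -0.14 ± 0.39 (SE; limma adjusted p = 0.885). The probe at 105 kb gave -0.19 in litter 1 and 0.32 in litter 2, and the probe at 72.7 kb gave 0.24 and 0.45. The other 3 Neb probes were not well above background on any array.

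**Figure D3:**
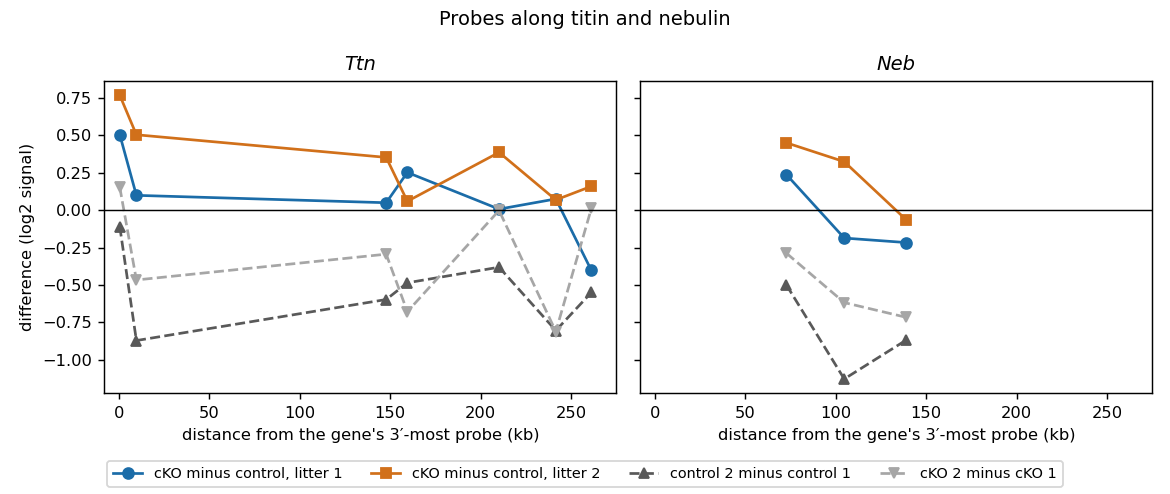
Differences in log2 signal (y axis) for each probe of Ttn and Neb that passed the filter, by its genomic distance in kb from the gene's 3′-most probe on the array (x axis). Solid lines give cKO minus control in each litter and dashed lines replicate 2 minus replicate 1 within a genotype; the Ttn probe nearest the 3′ end gave 0.51 and 0.77 in litters 1 and 2.

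The other 5 genes of this group were Acta1, the skeletal actin, Des, the intermediate filament desmin, Tpm2, a tropomyosin, and the Z-disc genes Myot and Ldb3. Tpm2 was the exception among them, at -0.14, and both desmin and Tpm2 are also made by smooth muscle. The other 4 differed by 0.44 for Acta1, 0.48 for Des, 0.55 for Myot and 0.60 for Ldb3. By these brightest probes both cKO animals lay above both controls. Another Ldb3 probe gave 0.51. A further, much dimmer Ldb3 probe gave -0.17 and was lower in cKO in both litters.

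Excitation reaches the fibre's calcium store through Cacna1s, the voltage sensor in the membrane, and Ryr1, the release channel. Cacna1s stood at 2.87 and 2.47 in the controls and 3.096 and 3.02 in the cKO animals, a difference of 0.39 ± 0.16 (SE; limma adjusted p = 0.344). Ryr1 stood at 1.64 and 1.21 against 1.76 and 1.88, a difference of 0.40 ± 0.17 (SE; limma adjusted p = 0.36). For both genes the cKO animals lay above the controls, and the gap was small against the spread of the controls. Their median of 0.39 was 0.60 without control replicate 1, 0.19 without control replicate 2 and 0.19 with normexp.

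Of the 6 genes of energy supply, 5 were higher in both litters, and the median was 0.37 (0.13 in litter 1 and 0.59 in litter 2). It was 0.21 without control replicate 2, 0.52 without control replicate 1 and 0.13 with normexp. Mb, the oxygen store myoglobin, stood at 0.64 and 0.49 in the controls and 1.47 and 1.35 in the cKO animals. It differed by almost the same amount in litter 1 (0.82) and litter 2 (0.86), and the fitted difference was 0.84 ± 0.10 (SE), a 1.79-fold higher signal (limma adjusted p = 0.0797). Pgam2, the muscle form of a glycolytic mutase, stood at 3.13 and 2.91 against 3.36 and 3.43, a difference of 0.38 ± 0.11 (SE; limma adjusted p = 0.243). Eno3, the muscle enolase, had controls at 5.34 and 4.92 and cKO animals at 5.51 and 5.49. Its groups lay apart by less than its controls differed.

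Cox8b, a subunit of the respiratory chain found in muscle and in brown fat, stood at 2.25 and 1.94 in the controls and 2.33 and 2.66 in the cKO animals. Its difference was 0.40 ± 0.17 (SE; limma adjusted p = 0.364), and the brown fat markers Ucp1 and Otop1 were not well above background on any array. Pygm, which breaks down glycogen, differed by 0.31, with 0.0091 in litter 1 and 0.61 in litter 2. Ckm, the creatine kinase of muscle, had overlapping groups, at 3.27 and 2.89 in the controls and 3.15 and 3.19 in the cKO animals.

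Genes of muscle outside the set were described through 5 lists. Of 26 tested genes of the sarcomere and Z-disc, 24 were higher in both litters, none lower in both, and the median was 0.40. Csrp3, a LIM protein of the Z-disc, stood at -0.35 and -0.49 in the controls and at 0.62 and 0.57 in the cKO animals, a difference of 1.02 ± 0.10 (SE; limma adjusted p = 0.0534). Myoz2, a Z-disc protein typical of slow and heart muscle, differed by 0.79 (limma adjusted p = 0.0778). Of 13 other energy genes, 8 were higher in both litters, and Fbp2, the muscle form of fructose bisphosphatase, stood at -1.69 in both controls and -0.71 and -0.44 in the cKO animals, a difference of 1.11 ± 0.12 (SE; limma adjusted p = 0.0635). Aldoa, a glycolytic enzyme of many tissues, differed by -0.40.

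Of 17 other genes of calcium release and the fibre membrane, 12 were higher in both litters (median 0.27), led in p by Cav3, the muscle caveolin, at 0.57, and Hrc, a calcium-binding protein of the store, at 0.30. Of 8 tested myogenic regulators and satellite cell genes, 4 were higher in both litters and 1 lower (median 0.27). Myod1, a master regulator of the muscle lineage, differed by 0.37 and the muscle cadherin Cdh15 by 0.31, while Myf5, Pax7 and Pax3 were not well above background on any array. Of 8 genes of the nerve-muscle synapse, 4 were higher in both litters and 1 lower (median 0.19), with Dok7 at 0.78 and Lrp4 at 0.32. None of the 72 genes tested in these 5 lists passed an adjusted p of 0.05 in limma. At an unadjusted p under 0.05, 22 of the 72 were higher and 1 lower, against 8.04% and 8.11% of all genes. Without control replicate 2 the list medians were 0.18 for the sarcomere, 0.14 for calcium release, 0.21 for energy, 0.10 for the myogenic and 0.19 for the synapse list, and without control replicate 1 they were 0.54, 0.41, 0.47, 0.43 and 0.26. With normexp they were 0.29, 0.16, 0.16, 0.45 and 0.71.

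Markers of other cells of the biopsy were read beside these results, and their part in them was not tested. Of 9 white fat genes, 7 were higher in both litters and none lower in both, with a median of 0.64, and Retn (1.68) and Thrsp (0.89) had the lowest p. The summed fat signal, in units of the array's 75th percentile, was 365 and 269 in the controls and 431 and 391 in the cKO animals. The summed muscle signal was 1362 and 1078 in the controls and 1464 and 1538 in the cKO animals. Both sums were thus lowest in control replicate 2 and higher in both cKO animals.

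Smooth muscle markers were mostly lower: 6 of 8 were lower in cKO in both litters, with Smtn at -0.66 and Tagln at -0.63. The 2 higher were Synpo2 (0.42) and the smooth muscle actin Acta2 (0.26), both with the cKO animals above the controls. The median of the 8 was -0.24. This median was -0.42 without cKO replicate 1, -0.36 without control replicate 2 and -0.09 without cKO replicate 2, and -0.37 with normexp. Their summed signal was 77.1 and 68.5 in the controls and 66.8 and 64.7 in the cKO animals. Of 10 heart muscle genes 6 could be tested: in both litters 4 of them were lower and 2 were higher. Tnni3 measured -0.42 and Actc1 -0.32, while Mybpc3 measured 0.34 and Myl4 0.26. Mybpc3 was dim (control mean -4.59), well above background on only 1 control array, and passed the filter through the cKO arrays. The median of -0.10 had no settled sign, as it was 0.36 with normexp and 0.10 without the filter on dim probes. Ryr2 and Pln were not well above background on any array, and Myh6 and Myl7 were above it on at most 1. Of the brown fat markers 4 could be tested, and 2 of these were lower in both litters (median -0.24), with Ppargc1a at -1.003 and Cidea at -0.41. Elovl3 (0.06) and Dio2 (-0.08) were mixed. The summed signal of the 4 was 34.3 and 31.4 in the controls and 29.6 and 26.1 in the cKO animals. Cidea and Elovl3 made up most of it, with control means of 4.44 and 3.37. As Ucp1 and Otop1 were not well above background on any array, these values do not show that the biopsies held brown fat.

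Of 8 dermal fibroblast markers, 3 were higher in both litters and 4 lower in both. Fbln1 (0.32) and Mfap5 (0.31) had the lowest p, while the collagens Col1a2 (-0.44), Col1a1 (-0.24) and Col3a1 (-0.13) and the matrix protein Lum (-0.17) were lower. The fibroblast median of -0.08 became 0.19 without control replicate 1, 0.21 without cKO replicate 2, -0.34 without control replicate 2 and -0.35 without cKO replicate 1, and was -0.37 with normexp. Of 8 basal keratinocyte markers, 7 were higher in both litters and 1 lower, with a median of 0.17 (-0.10 with normexp), and Dst (0.31) and Itga6 (0.24) had the lowest p. The summed fibroblast signal was lower in replicate 2 of both groups (770 and 510 in the controls, 684 and 408 in the cKO animals), whereas the keratinocyte sum stayed between 650 and 714. All 5 red cell markers tested were lower in cKO in both litters. Endothelial, Schwann cell and red cell markers had medians of -0.08, -0.07 and -0.35. Leaving out 1 array moved these from -0.29 (without control replicate 2) to 0.08 (without control replicate 1), from -0.38 to 0.28 (the same arrays), and from -0.69 (without cKO replicate 1) to -0.05 (without cKO replicate 2). So the first and second of these medians had no settled sign. Among them Tek (-0.63), Kdr (-0.45), Mbp (-0.56), Pmp22 (0.32) and Slc4a1 (-0.92) were among the lowest in p of their lists, and 0 of the 61 markers tested in the 9 lists passed an adjusted p of 0.05 in limma. At an unadjusted p under 0.05, 9 of the 61 were higher, 6 of them white fat genes, and 8 were lower, against 8.04% and 8.11% of all genes.

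**Figure D4:**
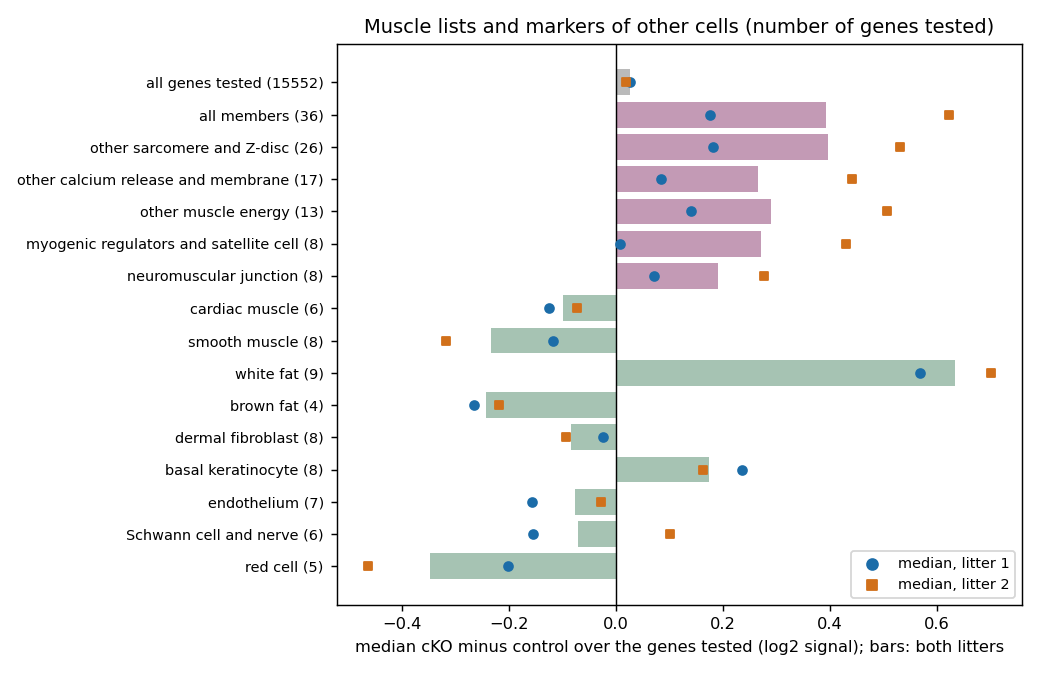
Median difference between cKO and control (x axis, log2 signal) over the tested genes of each list, as bars for both litters together and points for each litter, with muscle lists in purple and markers of other cells in green. The muscle lists, white fat and basal keratinocyte lists lay to the right of 0. The red cell, brown fat and smooth muscle lists lay furthest to the left.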

How the data were processed

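Expression was measured on 4 arrays, 2 control and 2 cKO skin biopsies. Per the file headers, the authors read the scans with Agilent Feature Extraction 10.7.3.1 (the submitters' processing notes name 10.5), design 014868, probe positions in mm9. The deposited intensity values are per spot, of which the background-subtracted, detrended processed signal was used. The authors' deposited series table holds log2 values, which matched the scanner values minus the 75th percentile and each probe's median (correlation at least 0.99999). Control spots and outlier spots (51 to 66 per array) were left out. Probes entered the test if both arrays of either group read them well above background (22190 of 41174 probes). Each gene took its brightest probe. Genes were named through the accession in the files for 26690 probes, a symbol for 5189 or a synonym for 952 (RefSeq, GRCm38.p6), and 8343 kept the file's name. All 37 members were matched by the file's name.

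The test was limma 3.58.1 (R 4.3.3), two-sided, without covariates, with Benjamini-Hochberg adjustment over 15552 genes and a threshold of 0.05, and the test was tested on simulated data. The labels name the litter of each animal, so litter pairs them; deviations from the group means correlated across genes at 0.35. A fit with litter as a block was among the 12 alternatives tried. Where a group was below background on both arrays, the fold is a lower limit against the lowest signal well above background. Values on every array were given for all slow and developmental genes, both coupling channels, and in the other groups the 3 genes with the lowest p and the one with the largest gap between controls; of each other list, the 2 with the lowest p, of which 1 is not reported here. Any other gene was named with its values already seen. The members and lists were chosen with earlier results of these data known.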

Additional observations from a re-analysis of the deposited data

Results flagged for a closer look

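In 5 of the 36 tested members the litters went opposite ways, each litter being 1 cKO array against 1 control array, so the difference between litters was not tested. Myh4 measured -0.55 in litter 1 and 0.16 in litter 2 by its brightest probe. By its other probe both cKO animals lay above both controls. Ckm measured -0.12 and 0.30, Myl1 -0.011 and 0.48, Tnnt1 -0.017 and 0.64, and Myh8 -0.015 and 0.34. By the far dimmer second probe of Myh8, both cKO animals also lay above both controls. In all 5 the litter 2 value was the higher, and in Myl1, Tnnt1 and Myh8 the litter 1 value was close to 0.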

How the results depend on the processing

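Of 12 alternatives, none brought a muscle member past an adjusted p of 0.05 (limma). The members' median kept its sign in all 12, between 0.14 and 0.56. It was 0.38 with quantile normalization, 0.36 with the mean of all probes and 0.20 to 0.56 when 1 array was left out; as 1 array then stands alone in its group, it is assumed to vary like the others. The count over all genes moved from 53 to 109 with median centring, 28 with probes above background on all 4 arrays and 0 with normexp, without the filter on dim probes and with the replicate block, and ranged from 0 to 38 when 1 array was left out (0 without control replicate 1, 0 without control replicate 2, 24 without cKO replicate 2). The replicate block changed no call of a member. Normexp turned the sign of Mylpf (-0.011), Myl1 (-0.0074), Actn3 (-0.097), Myh8 (-0.11) and Ckm (-0.18), and the mean of all probes that of Neb (0.091); the cause was not tested. Leaving out 1 array turned the sign of Myh4 (-0.52 to 0.13), Neb (-0.58 to 0.29), Pvalb (-0.21 to 0.65), Actn3 (-0.0050 to 0.27) and Ckm (-0.10 to 0.28). Among the lists, leaving out 1 array turned the sign of the medians of slow-fibre genes (-0.08 to 0.19), fibroblast (-0.35 to 0.21), endothelial (-0.29 to 0.08) and Schwann cell markers (-0.38 to 0.28), and normexp turned those of heart muscle (0.36), keratinocyte (-0.10) and Schwann cell markers (0.05). Dim genes such as Tnnc1 and Myl2 were limited by the signal over background.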

Other observations

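Some heart or muscle genes outside the set were well measured in this skin and were not higher in both litters. Actc1, the cardiac actin that young skeletal muscle also makes, stood at 1.57 and 1.34 in the controls and 1.27 and 1.001 in the cKO animals. Mybph, a myosin-binding protein, differed by -0.14 and Smyd1, a muscle methyltransferase, by 0.02. Ampd1, the AMP deaminase of fast fibres, had 0.85 and 0.42 in the controls and 0.83 and 0.43 in the cKO animals, so it differed between litters and hardly between genotypes.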
